A study of Mus musculus with 8 samples.

Results

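The genes for the proteins of the cytoplasmic ribosome were followed as mouse cells were turned into pluripotent cells with small molecules. Of 39009 rows in each deposited gene table, 89 carried a symbol that starts with Rpl or Rps followed by a digit, or that is Rpsa, Rplp0, Rplp1 or Rplp2, after symbols with -ps and the Rps6k kinases were left out. Of these rows, 75 were core subunit genes, 44 of the large and 31 of the small subunit. A further 6 were protein-coding paralogues of a core gene, 5 were pseudogene copies by the GENCODE annotation, and 2 (Rpl7l1 and Rps19bp1) encode proteins named after ribosomal proteins that are not subunits in their own right. The last row, printed as Rpl24, carried the identifier that GENCODE gives to Zbtb11 and lay at 3.40 to 9.52 FPKM, so it was set apart. Rpl24 itself stood in a row written in capitals outside the rule, and it is described with the other subunits that the rule misses. All but 1 row, Rps12l2, reached 1 FPKM (fragments mapped to a gene, scaled to its transcript length and to the size of the library) in a library and were tested.

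The 8 libraries fell into 5 groups. NSC-CiPSC are chemically induced pluripotent stem cells made from neural stem cells (lines 1, 2 and 3), and NSC are the neural stem cells, cultured to passage 2 from E13.5 embryos (1 library). IEC-CiPSC were made from small intestinal epithelial cells (lines 10 and 13), and IEC are such primary cells from E13.5 embryos (1 library). ESC is the embryonic stem cell line R1 (1 library), labelled as strain 129X1 x 129S1. The other 7 libraries carry a strain label of the form C57BL/6J-Tg(GOFGFP)11Imeg/RbrcxICR, so they share the GOFGFP transgene, in which a number runs from 11 to 17 over the libraries. Strain and cell source therefore cannot be told apart in any comparison with ESC. The compounds and times of treatment are not given in the sources used here, and a CiPSC line may be 1 clone.

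Ribosomal proteins are made in nearly equal numbers, because each mature ribosome holds a single copy of most of them and unassembled ones are degraded. Their mRNAs are among the most abundant of any growing cell and mostly begin with a C followed by a run of pyrimidines, the 5′ terminal oligopyrimidine tract through which the TOR kinase controls their translation. Pluripotent cells divide fast and make many ribosomes, while several core genes have paralogues with restricted expression, best known from testis and muscle.

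The 5 marker genes of pluripotency all reached 10 FPKM in each CiPSC line and in ESC, and none did in NSC or IEC. All 5 neural stem cell markers reached 10 FPKM in NSC. In IEC only 3 of 5 markers of intestinal epithelium did, and that library also held markers of other cells: 5 of 5 for mesenchyme (summed FPKM 5155), 5 of 5 for smooth muscle (2977), 4 of 5 for leukocytes (3380), 4 of 4 for liver (5669) and 4 of 4 for pancreas (2181). In the other 7 libraries these lists summed to at most 21.1, 42.4, 0.822, 0.505 and 0.287 FPKM. The part of these cells in the IEC values was not tested, and in bulk RNA fewer cells of a type and less RNA per cell cannot be told apart. FPKM sums over all rows ran from 661113 to 771389, and mitochondrial transcripts held from 1.94% of the sum in NSC-CiPSC line 2 to 11.6% in NSC.

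The start sites of 6 core genes, picked as examples, show a pyrimidine tract of the kind described above. RefSeq promoter windows (GRCm38.p6) were matched for 55 of the 75 core genes, and the letters below run from 10 bases before the RefSeq start to 20 bases from it, with the longest run of a C and at least 4 pyrimidines whose first base lies within 10 bases of the start in capitals. Genes with several starts are shown by the first listed.
Rps6, chr4:86857348-86857377, minus strand: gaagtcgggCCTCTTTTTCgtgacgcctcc
Rplp2, chr7:141447641-141447670, plus strand: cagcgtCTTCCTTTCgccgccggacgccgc
Rps10, chr17:27635225-27635254, minus strand: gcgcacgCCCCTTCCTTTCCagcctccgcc
Rpl28, chr7:4792955-4792984, plus strand: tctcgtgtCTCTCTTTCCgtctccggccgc
Rpl38, chr11:114668570-114668599, plus strand: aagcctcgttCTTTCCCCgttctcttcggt
Rps27, chr3:90213629-90213658, minus strand: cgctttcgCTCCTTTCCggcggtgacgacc
The run was 8 to 13 bases long in these windows. A C followed by at least 4 pyrimidines on the sense strand, beginning within 10 bases of the start, was found in 34 of the 55 core genes (61.8%), against 34.4% of 27025 genes with a window. In the whole promoter window, on either strand, the ETS factor core CCGGAAG stood in 43.6% of core genes and in 9.93% of all genes. The Sp1 core GGGCGG stood in 61.8% and 38.2%, and the YY1 core AAGATGGC in 9.09% and 3.19%. The TATAAA box went the other way, at 10.9% of core genes and 15.7% of all genes. These are matches of letters in a window and not mapped binding sites.

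The 89 rows together held 18.96%, 22.39% and 20.42% of the FPKM sum in NSC-CiPSC lines 1, 2 and 3, against 9.30% in NSC. They held 20.35% and 20.25% in IEC-CiPSC lines 10 and 13, against 14.23% in IEC, and 20.02% in ESC. All 5 CiPSC lines and ESC lay above both source cells. The median core gene stood at 1664, 2042 and 1816 FPKM in the NSC-CiPSC lines and 740.4 FPKM in NSC. It stood at 1748 and 1769 FPKM in the IEC-CiPSC lines, 1053 FPKM in IEC and 1661 FPKM in ESC. Without mitochondrial transcripts and selenoprotein genes in the sum, the shares were 22.01%, 24.9% and 23.5% in NSC-CiPSC, 11.6% in NSC, 23.2% and 23.4% in IEC-CiPSC, 16.7% in IEC and 22.6% in ESC, which keeps the same order of the groups.

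**Figure D1:**
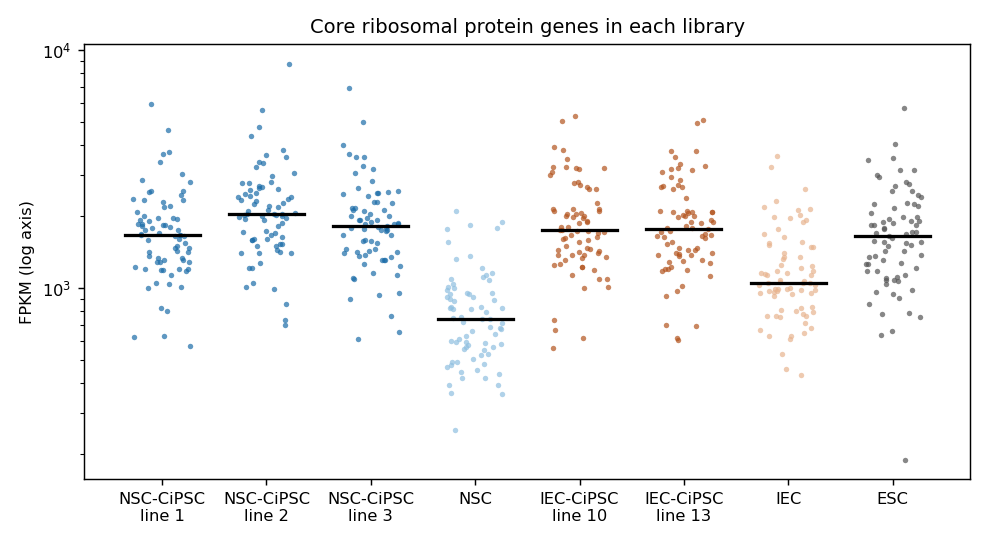
FPKM (log axis) of the 75 core ribosomal protein genes in each of the 8 libraries, with 1 point per gene and a bar at the median. The medians of the CiPSC lines and ESC lie between 1661 and 2042 FPKM, above IEC at 1053 and NSC at 740.4.

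Core genes differed in level among themselves in every library. Rpl13a was the highest in all 8, at 5926, 8760 and 6914 FPKM in NSC-CiPSC and 2110 FPKM in NSC, 5270 and 5094 FPKM in IEC-CiPSC and 3600 FPKM in IEC, and 5689 FPKM in ESC. Rplp1 and Rpl41, which encodes a very short basic peptide, followed it in mean level. Cufflinks levels are per length, so they can be compared between genes, but the level of so short an mRNA depends on how fragment length was treated. The order of the core genes was kept closely between lines of the same source, with a Spearman rho of 0.967 to 0.993 among the NSC-CiPSC lines and 0.996 between the IEC-CiPSC lines. It was lowest, 0.745, between IEC and ESC. These correlations run over the same 75 genes and share their lengths and base composition.

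In NSC-CiPSC against NSC nearly the whole set was higher: 74 of 75 core genes passed an adjusted p of 0.05 in limma, all upward, and 65 of them by at least 2-fold. Of all 17011 genes tested, 27.3% were called higher and 28.6% lower, and 18.3% were higher by at least 2-fold. The median difference of the core genes was 1.30 on the log2(FPKM + 1) scale, against 0.03 for all genes, and the single genes ran from 0.59 to 2.09. The large subunit (44 of 44 higher, median 1.28) and the small subunit (30 of 31, median 1.32) moved alike. The exception was Rps14, in the platform of the small subunit, at 2848, 4740 and 3646 FPKM in NSC-CiPSC and 1789 FPKM in NSC. Its lines were spread more widely than those of other genes, and its difference was 1.03 ± 0.31 (SE) with an adjusted p of 0.0514.

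The genes that rose most in this comparison encode proteins of different places on the ribosome. Rpl12, at the base of the stalk that recruits elongation factors, stood at 1413, 1967 and 1672 FPKM in NSC-CiPSC and 391.6 FPKM in NSC. Rps20, in the head of the small subunit, stood at 1313, 1669 and 1548 FPKM in NSC-CiPSC and 363.9 FPKM in NSC. Rps12 stood at 3676, 3538 and 3251 FPKM in NSC-CiPSC and 945.4 FPKM in NSC. Every line lay far above the NSC library for all 3, with differences of 2.09 ± 0.21, 2.04 ± 0.16 and 1.88 ± 0.12 (SE, adjusted p = 0.00244, 0.00128 and 0.000803). Rpsa, a small subunit protein also known as the laminin receptor, and Rpl7a had the smallest core differences. Rpsa stood at 797.8, 1010 and 899.2 FPKM in NSC-CiPSC and 594.8 FPKM in NSC, a difference of 0.59 ± 0.15 (adjusted p = 0.0317). Its processed copies, described further on, summed to 559.2, 729.0 and 639.1 FPKM in NSC-CiPSC and 8.25 FPKM in NSC, and with them added the differences became 1.35 for Rpsa and 0.86 for Rpl7a, so their place as the smallest rests on how fragments were split between parent and copies.

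With 1 NSC library the spread behind these tests comes from the CiPSC lines, so the tests assume that NSC, and likewise IEC and ESC, varies as the lines do, and p-values measure the spread between lines; whether the lines came from separate cultures is not stated. Quantile normalization, which forces the top of every library onto the same values, lowered the core median to 0.79 and left 65 core genes called.

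In IEC-CiPSC against IEC the core genes were also higher, but by less. Of the 75, 51 were called higher and 0 lower, with 57 at an unadjusted p under 0.05, all of them upward in mean, and 10 reached 2-fold. Among these 10 were the 4 core genes on chromosome X, Rpl10, Rpl36a, Rpl39 and Rps4x (median 1.29). The other 6 were among the 71 autosomal core genes (median 0.61). Of 666 genes of chromosome X tested, 292 were called higher and 161 lower, with a median of 0.55. The background was 27.3% of all genes higher, 33.2% lower and 19.1% higher by at least 2-fold. The core median was 0.62, against -0.03 for all genes, and the range was 0.00 to 1.61. The genes with the largest rise were Rpl36a, near the site where tRNA leaves the large subunit, at 3909 and 3754 FPKM in IEC-CiPSC and 1254 FPKM in IEC (1.61 ± 0.11, adjusted p = 0.000703), and Rps2, at 3151 and 3175 FPKM in IEC-CiPSC and 1184 FPKM in IEC (1.42 ± 0.17, adjusted p = 0.00315). Both lines lay above the IEC library for these genes. With processed copies added, the difference of Rps2 became 1.18, below those of Rpl39 (1.34), Rpl22 (1.32) and Rps4x (1.24). The place of Rps2 among the largest therefore rests on how fragments were split between parent and copies. Rps19, a small subunit protein needed to mature its RNA and mutated in human Diamond-Blackfan anaemia, stood at 1748 and 1644 FPKM in IEC-CiPSC and 1691 FPKM in IEC, so that the IEC value fell between the 2 lines. Rps27 likewise stood at 1090 and 928.3 FPKM in IEC-CiPSC and 977.5 FPKM in IEC.

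The count in this comparison depended on the scaling and on single lines. It was 23 with median ratio scaling, where the median of all genes moved to -0.34, and 26 with quantile normalization, where the core median exceeded that of all genes by only 0.11 in place of 0.64. It was 14 without IEC-CiPSC line 10, 14 without IEC-CiPSC line 13 and 30 without NSC-CiPSC line 3, but 58 without NSC-CiPSC line 1 or line 2 and 69 with only these 2 groups fitted, while the core median stayed at 0.62 to 0.63 in these fits.

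**Figure D2:**
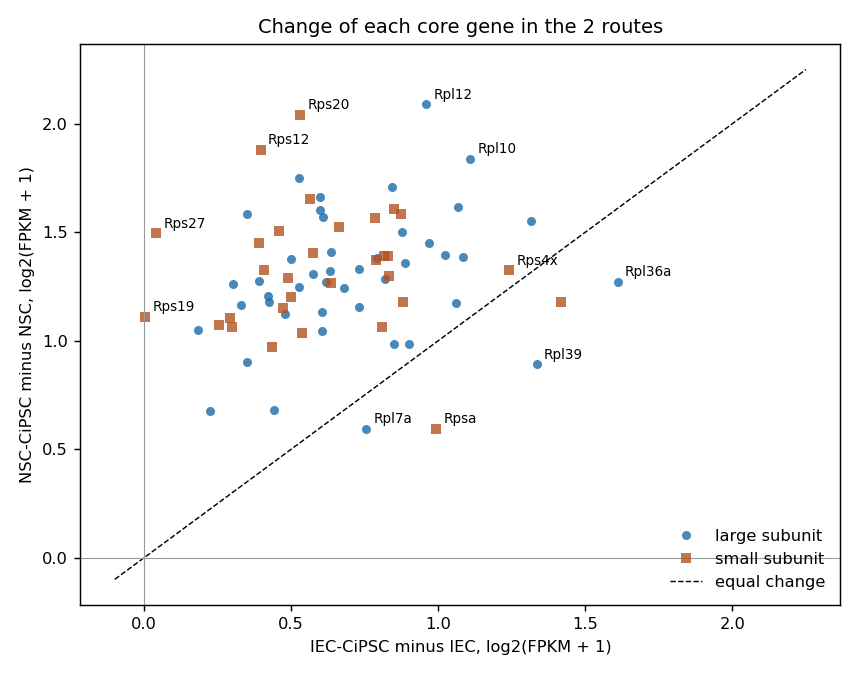
Difference in log2(FPKM + 1) of each of the 75 core genes in NSC-CiPSC minus NSC (vertical) and in IEC-CiPSC minus IEC (horizontal), with large subunit genes as circles and small subunit genes as squares. Most points lie above the dashed line of equal change; Rpl36a, Rpl39 and Rpsa lie below it, and Rps19 and Rps27 sit near 0 on the horizontal axis; with copies added, Rpsa moves above the line, at 1.35 and 0.85.

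The difference between the changes of the 2 routes was tested in the same fit. For 25 of 75 core genes the change was more positive in the neural route (NSC-CiPSC against NSC) than in the intestinal route (IEC-CiPSC against IEC), and it was less positive for 0, with 42 at an unadjusted p under 0.05. Of all genes, 20.6% were called in the same direction and 17.6% in the other. The median core difference between the routes was 0.68, against 0.02 for all genes. Rps20 differed by 1.51 ± 0.23 (adjusted p = 0.0113), Rps12 by 1.48 ± 0.17 (adjusted p = 0.00546) and Rplp0 by 1.24 ± 0.16 (adjusted p = 0.0075). Both source libraries enter this test in full and neither has a replicate. No alternative scaling, filter or left-out line was run for it.

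Set directly beside each other, NSC had the lower value in 74 of 75 core genes, where 47.0% of all genes had it, with a median difference of -0.62 against 0 for all genes. There is no replicate of either library and no test. By at least 2-fold, 5 core genes were lower in NSC, against 20.5% of all genes, so the shift was broad and mostly small. They included Rpl10, which joins the large subunit late in its assembly (530.9 FPKM in NSC, 1520 FPKM in IEC), Rps20 (363.9 FPKM in NSC, 959.7 FPKM in IEC), Rps12 (945.4 FPKM in NSC, 2142 FPKM in IEC) and Rps27 (434.4 FPKM in NSC, 977.5 FPKM in IEC). Rpl29 was the only core gene not lower, at 442.6 FPKM in NSC and 432.9 FPKM in IEC; 48.5% of all genes had the higher value in NSC. With processed copies added to their parents, Rpl29 stood at 580.2 FPKM in NSC and 917.1 FPKM in IEC, and all 75 core genes had the lower value in NSC.

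The stalk of the large subunit, made of Rplp0 and the acidic proteins Rplp1 and Rplp2, recruits the elongation factors. Rplp1 stood at 4638, 5603 and 4977 FPKM in NSC-CiPSC and 1904 FPKM in NSC, and at 5028 and 4950 FPKM in IEC-CiPSC and 3215 FPKM in IEC. Rplp2 stood at 1600, 2022 and 1784 FPKM in NSC-CiPSC and 687.4 FPKM in NSC, and at 1631 and 1628 FPKM in IEC-CiPSC and 941.2 FPKM in IEC. The lines lay above their source for both genes in both routes, and all 4 differences were called (1.41, 1.38, 0.63 and 0.79). For Rplp0 the neural route gave 1.59 ± 0.11 (adjusted p = 0.00103) and the intestinal route 0.35 ± 0.12 (adjusted p = 0.0644).

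Of 9 members with known special roles (Rpl5, Rpl11, Rps19, Rps6, Rpl10a, Rpl38, Rps25, Rps27a and Rps4x), all 9 were called higher in NSC-CiPSC against NSC. In IEC-CiPSC against IEC 8 were, the exception being Rps19. Of all genes tested, 27.3% were called higher in each of these comparisons. Of all 75 core genes, 74 and 51 were, so these counts are not read as a trait of the 9. Rpl5 and Rpl11 bind the 5S RNA and, when free, the p53 regulator Mdm2. Rpl5 stood at 1185, 1596 and 1360 FPKM in NSC-CiPSC and 501.5 FPKM in NSC, and at 1398 and 1407 FPKM in IEC-CiPSC and 716.7 FPKM in IEC. Rpl11 rose by less in the neural route (0.98 ± 0.23, adjusted p = 0.0252) than Rpl5 did (1.45 ± 0.19, adjusted p = 0.00474), without a test of that difference. Rps6, the substrate of the S6 kinases, stood at 1824, 2275 and 2003 FPKM in NSC-CiPSC and 675.3 FPKM in NSC, and at 2139 and 2113 FPKM in IEC-CiPSC and 1159 FPKM in IEC. Rpl10a and Rps25, which mouse embryonic stem cell ribosomes carry in less than full number, gave 1.66 and 1.39 in the neural route and 0.60 and 0.83 in the intestinal route, all 4 called. Rpl38, known in mouse for the translation of Hox mRNAs, gave 1.05 and 0.61, and Rps27a, made as a fusion with ubiquitin, gave 1.56 and 0.78, all called as well.

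Against ESC the CiPSC lines differed in few core genes. In NSC-CiPSC 4 of 75 were called higher and 0 lower, where 1.75% of all genes were called higher and 2.59% lower, and the core median was 0.11 (0.21 without NSC-CiPSC line 1 and 0.04 without line 2). In IEC-CiPSC 7 were called higher and 0 lower, against 2.40% and 2.50% of all genes, with a median of 0.07. Both medians turned to values between -0.08 and 0.01 when libraries were set to an equal FPKM sum or quantile normalized, so no direction is given for the set. The genes called in both were Rpl29, Rps3a1 and Rplp0. NSC-CiPSC added Rpl30, and IEC-CiPSC added Rpl10, Rpl36a, Rpl39 and Rps4x. Without IEC-CiPSC line 10 or line 13 the counts were 1 and 0, and without NSC-CiPSC line 3 they were 2 and 1 (7 to 12 at an unadjusted p under 0.05). The 2 comparisons share the ESC library, so they are not independent of each other.

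Of the genes that were higher in NSC-CiPSC, all 4 had processed copies that were high in ESC. Processed copies are reverse-transcribed genes without introns that were pasted elsewhere in the genome, and 383 pseudogenes shared at least 30% of their 30-base words with 67 parents, 66 of them core genes. Rps3a1, a small subunit protein gene, stood at 2209, 2429 and 2165 FPKM in NSC-CiPSC, 2052 and 2077 FPKM in IEC-CiPSC and 657.8 FPKM in ESC. Its copy Rps3a2 stood at 31.9, 39.3 and 31.0 FPKM in NSC-CiPSC, 30.2 and 29.6 FPKM in IEC-CiPSC and 774.9 FPKM in ESC. Its copy Rps3a3 stood at no more than 2.11 FPKM in the CiPSC lines and at 657.7 FPKM in ESC. ESC was thus lowest for the parent and highest for the copies, which were called lower in NSC-CiPSC (-4.47 ± 0.15 for Rps3a2 and -8.85 ± 0.20 for Rps3a3, adjusted p = 0.00146 and 0.00037) and in IEC-CiPSC (-4.65 ± 0.16 and -7.81 ± 0.21, adjusted p = 0.00178 and 0.000772). The 3 rows together with another copy came to 2244, 2471 and 2199 FPKM in NSC-CiPSC, 2085 and 2111 FPKM in IEC-CiPSC and 2093 FPKM in ESC.

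The near identity of these rows shows in their letters. Below are coding bases 201 to 260 of Rps3a1 and 37 to 96 of Rpl30, from GENCODE M21 transcripts (GRCm38), with the aligned bases of 2 copies each. Capitals mark a base of a copy that differs from its parent, and the coordinates are those of the whole gene.
Rps3a1, chr3:86137940-86142702, minus strand: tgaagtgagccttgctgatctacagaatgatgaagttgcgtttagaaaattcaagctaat
Rps3a2, chr14:88123017-88123808, minus strand: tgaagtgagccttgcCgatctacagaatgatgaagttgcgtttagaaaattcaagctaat
Rps3a3, chr13:108670603-108671397, plus strand: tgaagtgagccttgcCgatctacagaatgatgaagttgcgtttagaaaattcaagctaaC
Rpl30, chr15:34440505-34443640, minus strand: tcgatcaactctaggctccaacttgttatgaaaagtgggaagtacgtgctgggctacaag
Rpl30-ps9, chrX:105278637-105278981, minus strand: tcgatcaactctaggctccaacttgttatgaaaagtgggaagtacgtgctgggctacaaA
Rpl30-ps10, chrX:71803688-71804034, plus strand: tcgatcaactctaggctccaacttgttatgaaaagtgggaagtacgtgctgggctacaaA
These stretches were chosen for holding differences in every copy, and they still differ by only 1 or 2 bases. Over the aligned coding bases, Rps3a2 was 99.5% and Rps3a3 98.9% identical to Rps3a1, and Rpl30-ps9 and Rpl30-ps10 were 99.4% and 99.1% identical to Rpl30. How fragments that match a parent and its copies were assigned is not given in the sources used here.

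Rpl30 followed the pattern of Rps3a1. It stood at 1422, 1718 and 1570 FPKM in NSC-CiPSC, 1443 and 1313 FPKM in IEC-CiPSC and 784.8 FPKM in ESC, while its copies Gm12191, Rpl30-ps9 and Rpl30-ps10 stood at 514.9, 510.0 and 270.0 FPKM in ESC and at no more than 2.87 FPKM in each other library. Rpl29 stood at 1006, 1054 and 953.4 FPKM in NSC-CiPSC, 558.8 and 605.7 FPKM in IEC-CiPSC and 190.2 FPKM in ESC. Its 22 copies summed to 70.3, 72.3 and 60.3 FPKM in NSC-CiPSC, 609.4 and 633.5 FPKM in IEC-CiPSC, 1087 FPKM in ESC, 137.7 FPKM in NSC and 484.1 FPKM in IEC. All 3 NSC-CiPSC lines and NSC lay below both IEC-CiPSC lines and IEC in the summed copies of Rpl29, and ESC lay above them all.

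Rplp0 stood at 2349, 2690 and 2498 FPKM in NSC-CiPSC, 1896 and 1897 FPKM in IEC-CiPSC and 1079 FPKM in ESC. Its copies summed to 108.6, 129.5 and 121.1 FPKM in NSC-CiPSC, 91.3 and 88.5 FPKM in IEC-CiPSC and 668.1 FPKM in ESC, so that among the CiPSC lines and ESC the ESC library was again highest for the copies and lowest for the parent. When the copies were added to their parent in every library, an alternative chosen after seeing the data, 0 core genes were called in NSC-CiPSC against ESC, with 7 at an unadjusted p under 0.05. The difference of Rps3a1 fell to 0.14 (adjusted p = 0.545) in place of 1.78 ± 0.10 (adjusted p = 0.00668), and that of Rplp0 to 0.59 (adjusted p = 0.0847) in place of 1.22 ± 0.11 (adjusted p = 0.019). The differences of Rpl29 and Rpl30 turned to -0.25 and -0.41, in place of 2.39 ± 0.09 (adjusted p = 0.00209) and 1.00 ± 0.14 (adjusted p = 0.0476). In IEC-CiPSC against ESC the 4 calls of Rpl10, Rpl36a, Rpl39 and Rps4x were left. In the 2 source comparisons 74 and 53 core genes were called higher after the addition, among them all 74 and 51 called before it. Single values did move there, by over 1.5 times for Rpsa and Rpl21 in NSC-CiPSC against NSC.

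**Figure D3:**
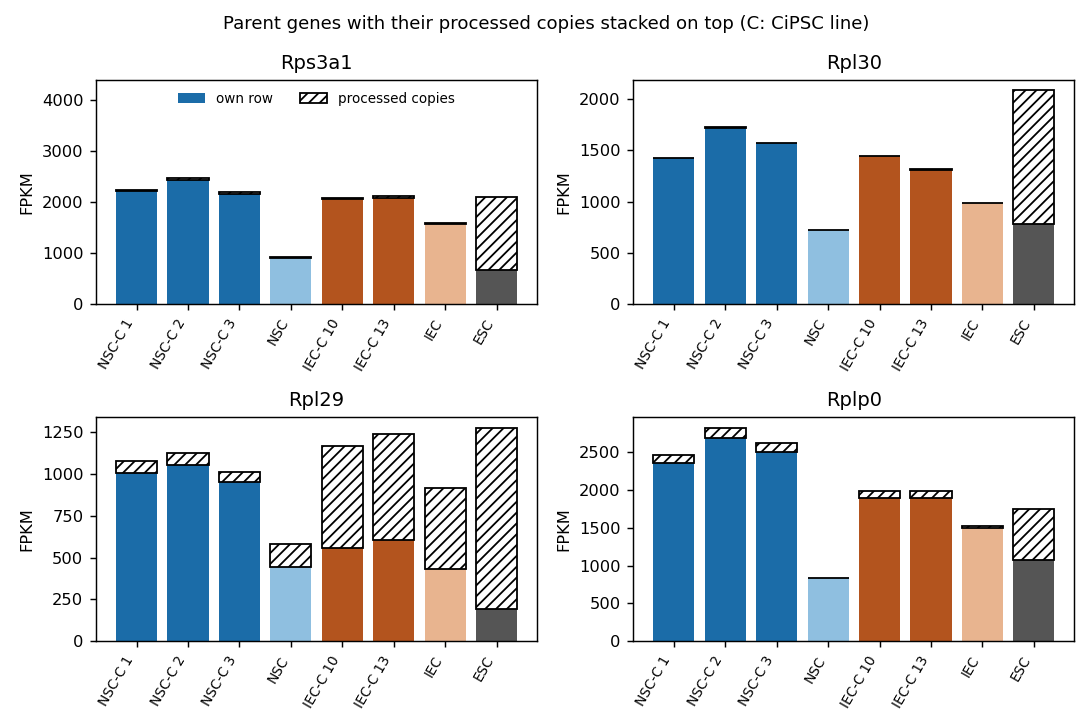
FPKM of Rps3a1, Rpl30, Rpl29 and Rplp0 in each library (filled bars, own row) with the summed FPKM of their processed copies stacked on top (hatched). In ESC the copies hold 68.6%, 62.4%, 85.1% and 38.2% of the summed level of these 4 parents, against at most 6.54% in the NSC-CiPSC lines.

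Over all core genes the copies came to 5.74%, 5.55% and 5.63% of the core sum in NSC-CiPSC and 3.66% in NSC, to 5.25% and 5.38% in IEC-CiPSC and 5.46% in IEC, and to 8.14% in ESC. Copies made up at least 25% of the summed level for 9 core genes in ESC, 5 in each NSC-CiPSC line and 2 in NSC, and for 6 in each IEC-CiPSC line and 7 in IEC.

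The 2 kinds of CiPSC differed in 5 of 75 core genes, 1 higher and 4 lower in NSC-CiPSC, where 4.49% of all genes were called higher and 5.05% lower. The higher gene was Rpl29, whose difference of 0.79 ± 0.07 turned to -0.17 (adjusted p = 0.241) with its copies added. The 4 lower genes were Rpl10, Rpl36a, Rpl39 and Rps4x, which are the 4 core genes on chromosome X. Their start windows are given because these genes carry the difference, with the same marking as above.
Rpl10, chrX:74270806-74270835, plus strand: tacagtggaagataggccgcctatataagg
Rpl36a, chrX:134585644-134585673, plus strand: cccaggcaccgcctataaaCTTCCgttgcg
Rpl39, chrX:37085203-37085232, minus strand: gctccgcctctagcgaCTTCTTCTaatcgc
Rps4x, chrX:102189372-102189401, minus strand: gctgggcggagcaacccaggctccagcgcg
No such run was found for Rpl10 and Rps4x at the start shown, and the runs of Rpl36a and Rpl39 begin after it.

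Rpl10 stood at 1846, 1984 and 1876 FPKM in NSC-CiPSC and 3238 and 3323 FPKM in IEC-CiPSC. Rpl36a stood at 1858, 2042 and 1866 FPKM in NSC-CiPSC and 3909 and 3754 FPKM in IEC-CiPSC. Rpl39, a short protein of the exit tunnel, stood at 1041, 1218 and 1092 FPKM in NSC-CiPSC and 2283 and 2390 FPKM in IEC-CiPSC. For all 3 genes every NSC-CiPSC line lay below both IEC-CiPSC lines, by a wide gap. Rps4x stood at 1664, 1955 and 1759 FPKM in NSC-CiPSC and 3196 and 3064 FPKM in IEC-CiPSC, with the same separation. The differences were -0.79 ± 0.07, -0.996 ± 0.084, -1.07 ± 0.09 and -0.81 ± 0.10 (SE), with adjusted p of 0.0164, 0.0139, 0.0151 and 0.0258.

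In ESC these 4 genes stood at 1661, 1909, 966.3 and 1576 FPKM, close to the NSC-CiPSC lines and below the IEC-CiPSC lines. IEC-CiPSC exceeded ESC by 0.98 to 1.27 for the 4 genes (adjusted p = 0.0229 to 0.0415). The NSC-CiPSC differences from ESC were 0.01 to 0.21, and none was called. Between the 2 kinds of CiPSC the median of the 71 autosomal core genes was 0.08, so the shift lay in the X-linked members.

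Genes of chromosome X as a whole were lower in NSC-CiPSC than in IEC-CiPSC. Of 666 tested, 220 were called lower and 11 higher, with a median of -0.64, against a median of 0.04 for 16297 autosomal genes. The Y-linked gene Ddx3y stood at 11.3, 12.7 and 7.89 FPKM in NSC-CiPSC, 0.0422 and 0.168 FPKM in IEC-CiPSC, 8.76 FPKM in NSC, 9.10 FPKM in IEC and 14.3 FPKM in ESC. Xist, the RNA that silences an X chromosome, stood at 0.428, 0.195 and 0.237 FPKM in NSC-CiPSC, 0.362 and 0.544 FPKM in IEC-CiPSC, 6.53 FPKM in NSC, 19.7 FPKM in IEC and 1.04 FPKM in ESC. The part of the sex chromosomes in the levels of the 4 genes was not tested. Without IEC-CiPSC line 10, IEC-CiPSC line 13 or NSC-CiPSC line 3, 0 core genes were called between the 2 kinds of CiPSC, with 5, 6 and 10 at an unadjusted p under 0.05, and the calls of the X-linked genes against ESC were lost too. The X-linked differences between the 2 kinds of CiPSC themselves stayed between -1.13 and -0.74 in all alternatives run.

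**Figure D4:**
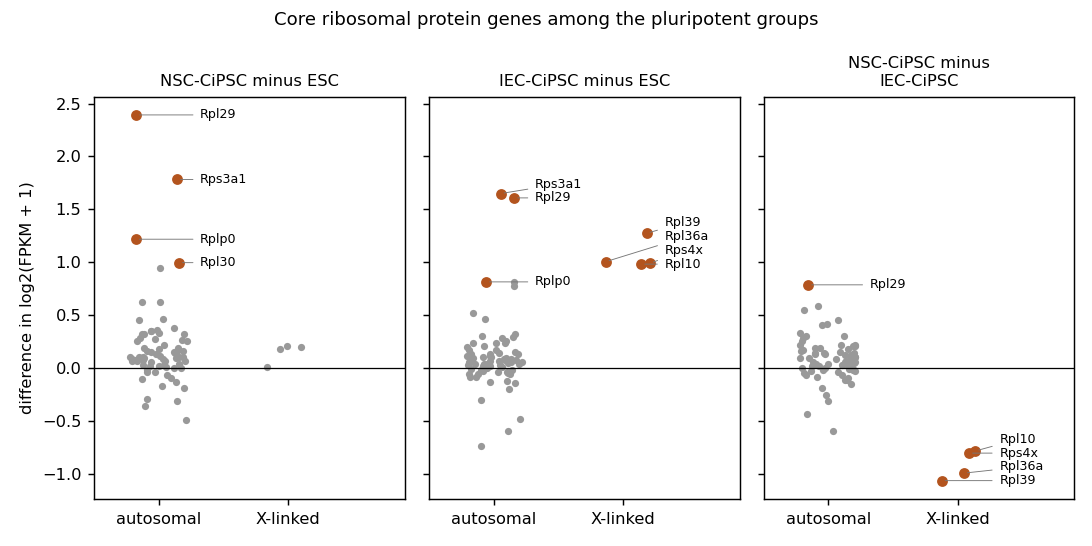
Difference in log2(FPKM + 1) of the core genes in NSC-CiPSC minus ESC, IEC-CiPSC minus ESC and NSC-CiPSC minus IEC-CiPSC, with the 71 autosomal and 4 X-linked genes apart and called genes named in colour. The 4 X-linked genes lie near 0 on the left, at 0.98 to 1.27 in the middle and at -1.07 to -0.79 on the right.

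The largest rises over the source cells were those of Rps4y2, a pseudogene copy, and of the paralogues Rpl10l and Rpl39l. Rps4y2, named Rps4l in GENCODE M21 and annotated there as a transcribed processed pseudogene on chromosome 6, stood at 497.4, 510.3 and 536.2 FPKM in NSC-CiPSC and 4.71 FPKM in NSC. It stood at 373.1 and 387.1 FPKM in IEC-CiPSC and 11.1 FPKM in IEC, and at 480.3 FPKM in ESC. It was thus high in all 6 pluripotent libraries and low in both source cells, with differences of 6.50 ± 0.07 (adjusted p = 1.08e-05) and 4.97 ± 0.07 (adjusted p = 5.51e-06). Its coding bases were 80.1% identical to those of Rps4x, and it shared 0.985% of its 30-base words with it, so few fragments could match both. NSC-CiPSC exceeded IEC-CiPSC in Rps4y2 by 0.44 ± 0.05 (adjusted p = 0.0243), a call that was lost in 5 of its alternatives (adjusted p up to 0.172).

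Rpl10l, the autosomal intronless copy of Rpl10 known from mouse testis, stood at 27.9, 46.9 and 37.2 FPKM in NSC-CiPSC and was listed at 0 in NSC. It stood at 33.3 and 30.2 FPKM in IEC-CiPSC, was listed at 0 in IEC, and stood at 161.6 FPKM in ESC. All CiPSC lines therefore lay above their source cells and below ESC. The change was called in both routes (adjusted p = 0.000658 and 0.00058). Against ESC the differences were -2.12 ± 0.31 in NSC-CiPSC (adjusted p = 0.0496, lost in 8 alternatives) and -2.31 ± 0.33 in IEC-CiPSC (adjusted p = 0.044, lost in 6).

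Rpl39l, a paralogue of Rpl39 known from mouse testis and embryonic stem cells, had the same order. It stood at 17.5, 33.0 and 19.6 FPKM in NSC-CiPSC and was listed at 0 in NSC, and it stood at 36.4 and 38.8 FPKM in IEC-CiPSC, 0.473 FPKM in IEC and 106.9 FPKM in ESC. Both source comparisons were called (adjusted p = 0.00161 and 0.00133), and the differences from ESC of -2.20 ± 0.39 and -1.49 ± 0.41 were not (adjusted p = 0.0692 and 0.136). The windows around the RefSeq starts of 4 paralogues are given below with the same marking. Rpl39l and Rpl10l separate pluripotent cells from their sources, and Rps27l lay apart in the 2 sources. Rpl22l1 was called in the neural route only. Its lower value in NSC than in IEC is a direction shared by 74 of 75 core genes.
Rpl39l, chr16:10170218-10170247, plus strand: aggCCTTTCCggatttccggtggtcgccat
Rpl10l, chr12:66284382-66284411, minus strand: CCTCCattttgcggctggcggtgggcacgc
Rpl22l1, chr3:28805498-28805527, plus strand: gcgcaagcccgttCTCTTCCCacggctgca
Rps27l, chr9:66946076-66946105, plus strand: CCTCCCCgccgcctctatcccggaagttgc
The runs in capitals are 5 to 8 bases long. Those of Rpl39l, Rpl10l and Rps27l lie wholly before the RefSeq start, and that of Rpl22l1 begins after it. None of them is therefore shown to open the mRNA.

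Rps27l, a paralogue of Rps27 known in human cells as a p53 target, behaved differently in the 2 routes. It stood at 902.7, 901.9 and 776.7 FPKM in NSC-CiPSC and 647.0 FPKM in NSC, and at 877.9 and 896.3 FPKM in IEC-CiPSC and 270.9 FPKM in IEC. The lines of both origins lay together with ESC (858.5 FPKM), and the sources lay apart. The intestinal change was 1.71 ± 0.12 (adjusted p = 0.000789), the neural change 0.41 ± 0.12 (adjusted p = 0.0442, lost in 10 alternatives and 0.00 after quantile normalization), and the difference between them -1.30 ± 0.17 (adjusted p = 0.00744). Its parent Rps27 had the opposite order, 1.49 ± 0.18 in the neural route (adjusted p = 0.00408) and 0.04 ± 0.19 in the intestinal route (adjusted p = 0.876), with a difference of 1.45 ± 0.26 (adjusted p = 0.0185). Their coding bases were 75.3% identical and no 30-base word was shared.

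Rpl22l1, which can take the place of Rpl22, stood at 400.1, 607.6 and 581.7 FPKM in NSC-CiPSC and 194.0 FPKM in NSC, and at 381.9 and 411.2 FPKM in IEC-CiPSC and 318.8 FPKM in IEC. The first change was called (1.42 ± 0.27, adjusted p = 0.0149) and the second was not (0.31 ± 0.29, adjusted p = 0.404). Rpl22 itself rose in both routes, by 1.55 ± 0.12 and 1.32 ± 0.12 (adjusted p = 0.00117 and 0.00163). Rpl36al, the autosomal copy of Rpl36a, stood at 1006, 1063 and 976.3 FPKM in NSC-CiPSC and 431.7 FPKM in NSC, and at 1008 and 1040 FPKM in IEC-CiPSC and 476.9 FPKM in IEC. Unlike its X-linked parent it was at nearly the same level in both kinds of CiPSC, a difference of -0.01 ± 0.06 (adjusted p = 0.937). Rpl3l, the muscle paralogue of Rpl3, lay at 1.60 to 2.64 FPKM in the CiPSC lines and at 0.123 FPKM in NSC and 0.228 FPKM in IEC.

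**Figure D5:**
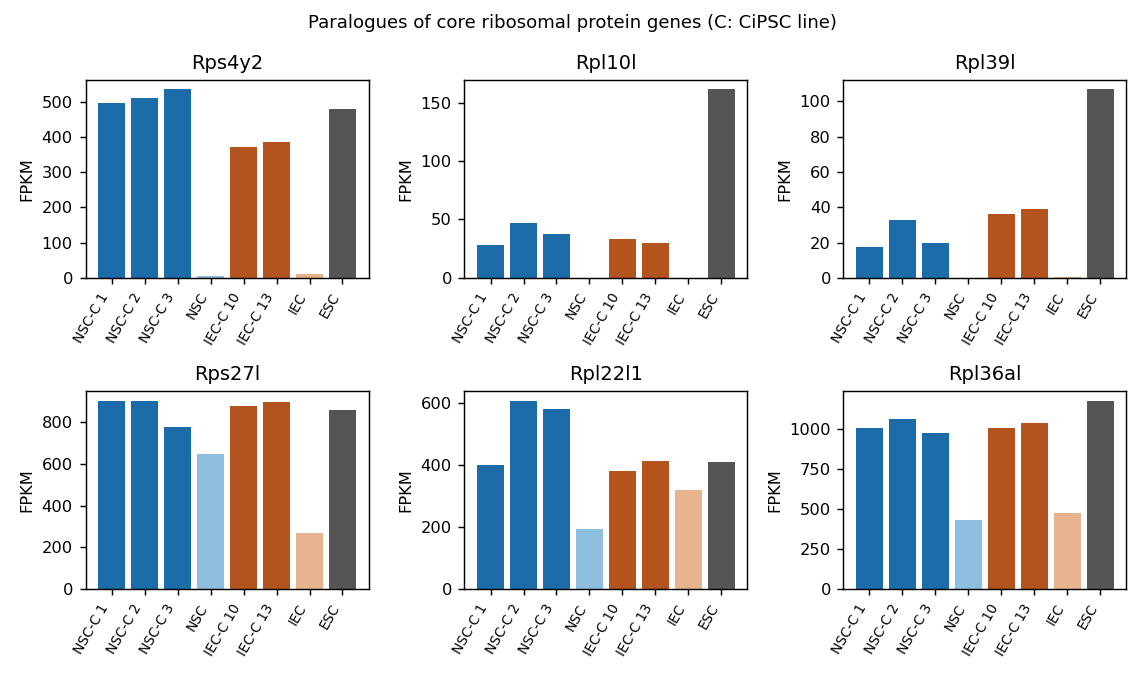
FPKM of Rps4y2, Rpl10l, Rpl39l, Rps27l, Rpl22l1 and Rpl36al in each of the 8 libraries, each panel with its own axis from 0. Rps4y2, Rpl10l and Rpl39l are at or near 0 in NSC and IEC; Rpl10l and Rpl39l reach 161.6 and 106.9 FPKM in ESC, above all CiPSC lines.

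Of the pseudogene copies that the rule took in, Rps12l1 shared 100% of its 30-base words with Rps12 and stood at 87.6 to 107.9 FPKM in the CiPSC lines, so its level cannot be told from that of Rps12. Rps12l2 did not exceed 0.580 FPKM. Rpl7l1, a nucleolar protein related to Rpl7, stood at 152.0, 117.6 and 118.2 FPKM in NSC-CiPSC and 51.0 FPKM in NSC, and at 122.1 and 128.8 FPKM in IEC-CiPSC and 43.9 FPKM in IEC, called higher in both (1.31 ± 0.18 and 1.49 ± 0.19, adjusted p = 0.00545 and 0.00389).

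The subunits that the rule misses behaved as the core genes did. Rpl24 stood at 1647, 1722 and 1502 FPKM in NSC-CiPSC and 832.0 FPKM in NSC, at 1556 and 1605 FPKM in IEC-CiPSC and 899.4 FPKM in IEC, and at 1381 FPKM in ESC. Fau, made as a fusion of a ubiquitin-like protein with a small subunit protein, stood at 1440, 1772 and 1593 FPKM in NSC-CiPSC and 602.2 FPKM in NSC, and at 1419 and 1396 FPKM in IEC-CiPSC and 1052 FPKM in IEC. Of the subunits outside the rule, Gnb2l1 (Rack1) among them, 4 of 4 were called higher in the neural route and 2 of 4 in the intestinal route.

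Other genes of the translation machinery were counted in the same fits, where 27.3% of all genes were called higher and 28.6% lower in the neural route and 27.3% higher and 33.2% lower in the intestinal route. Of 42 ribosome biogenesis genes, 38 were called higher and 0 lower in NSC-CiPSC against NSC, and 40 higher and 0 lower in IEC-CiPSC against IEC, with medians of 2.05 and 2.01, above those of the core genes in both. Npm1, a nucleolar chaperone, averaged 3031 FPKM in NSC-CiPSC and 435.3 FPKM in NSC, and Dkc1, the pseudouridine synthase of small nucleolar particles, averaged 225.5 FPKM in IEC-CiPSC and 21.1 FPKM in IEC. Of 33 translation factors, 26 were higher and 1 lower in the neural route, and 24 were higher and 1 lower in the intestinal route. Eif2s2, a subunit of the factor that brings the initiator tRNA, averaged 516.2 FPKM in NSC-CiPSC and 87.1 FPKM in NSC, and 820.1 FPKM in IEC-CiPSC and 90.1 FPKM in IEC. The factor that fell in the neural route was Eef1a2, the form of the elongation factor known from neurons and muscle, at 0.852 FPKM in NSC-CiPSC and 32.5 FPKM in NSC.

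Mitochondrial ribosomal protein genes were counted beside the cytoplasmic ones. Of all genes, 27.3% were called higher and 28.6% lower in the neural route, and 27.3% higher and 33.2% lower in the intestinal route. Of 80 mitochondrial ribosomal protein genes, 27 were higher and 12 lower in NSC-CiPSC against NSC (median 0.24). In IEC-CiPSC against IEC, 53 were higher and 0 lower (median 0.75). The difference between the routes, for which no alternative was run, was called negative for 31 of them and positive for 0 (46 at an unadjusted p under 0.05). Of all genes, 17.6% were called negative. Of the core cytoplasmic genes, 25 were called positive and 0 negative. Mrps6 fell to a mean of 36.6 FPKM in NSC-CiPSC, against 190.5 FPKM in NSC. Of 21 genes on a list drawn up around the TOR pathway, 8 were higher and 4 lower in the neural route. In the intestinal route 9 were higher and 1 lower. The list also held Mycn and the kinase gene Rps6ka1, both called higher in both routes, so these are not counts of TOR components alone. The medians of the listed genes were 0.09 and 0.15, so no direction is given for the list. Eif4ebp1, a translation repressor that TOR inactivates, was among those with the largest differences. It averaged 416.0 FPKM in NSC-CiPSC and 43.8 FPKM in NSC, and 440.0 FPKM in IEC-CiPSC and 120.5 FPKM in IEC. Akt1s1 was the listed gene called lower in the intestinal route, at 14.5 FPKM on average in IEC-CiPSC and 89.5 FPKM in IEC.

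Lines of the same origin also differed in the core genes. Among the NSC-CiPSC lines, line 2 exceeded line 1 in 74 of 75 core genes (median 0.28) and line 3 exceeded line 1 in 66 (median 0.12). The median coefficient of variation of a core gene was 9.93% over the 3 NSC-CiPSC lines and 1.13% over the 2 IEC-CiPSC lines. Mitochondrial transcripts held 5.61%, 1.94% and 3.85% of the FPKM sum in NSC-CiPSC lines 1, 2 and 3, so their order ran against that of the core genes, and their part in it was not tested. The 2 IEC-CiPSC lines were close to each other, with line 13 above line 10 in 40 of 75 core genes and a median difference of 0.00.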

How the data were processed

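RNA was measured by sequencing of 8 libraries in 5 groups. The labels' protocols name the RNeasy Plus Mini kit for RNA and NEBNext Ultra for the libraries. The deposited values are FPKM per gene; the submitters' processing notes list TopHat, Cufflinks and the build mm10. Versions and the annotation release are not given in the sources used here. The files give no counts, so depth is unknown and no counting interval is printed.

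Rows were joined by identifier and position, and 37537 of 39009 were matched to GENCODE M21 for names, biotypes and chromosomes. After 447 rows without an OK status were left out, 17011 genes with at least 1 FPKM in a library were tested on log2(FPKM + 1) with limma 3.58.1 (R 4.3.3): 5 group means, empirical Bayes with a trend, 3 residual degrees of freedom, Benjamini-Hochberg adjustment over all genes, and a call at an adjusted p under 0.05. Differences on this scale understate the change of low genes. NSC, IEC and ESC have 1 library each. The fit was tested on simulated data. Processed copies were pseudogenes sharing at least 30% of their 30-base words with a parent transcript. Sequences are from RefSeq (GRCm38.p6 promoter table) and GENCODE M21 transcripts; protein sequences were not used here.

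Named genes were the called members with the 6 largest rises and falls per comparison with a mean of at least 10 FPKM, the stalk genes and Rpsa, paralogues with their parents, a short list of members with known special roles, the members with the 3 highest and lowest means, and up to 4 members of each other list. Others (Rps14, Rps2, Rpl21, Rpl7a, Rps10 and Rpl28, and the copies) were picked with their values in view. The members and lists were chosen with earlier results of these data known. Alternatives covered scaling, pseudocount, filter, trend, the groups fitted and leaving out each line; copies summed onto parents and the test of the difference between the routes were added after seeing the data.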

Additional observations from a re-analysis of the deposited data

Results flagged for a closer look

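For 14 of the members named above, the change in the neural route (NSC-CiPSC minus NSC) differed from the change in the intestinal route (IEC-CiPSC minus IEC) in a test of the difference itself (limma, adjusted p under 0.05). The difference was positive, a larger rise in the neural route, for Rpl10 (0.73), Rpl29 (0.75), Rps27a (0.78), Rps12l1 (0.85), Rpl7 (0.88), Rps3a1 (0.92), Rpl10a (1.07), Rps19 (1.11), Rplp0 (1.24), Rps27 (1.45), Rps12 (1.48), Rps20 (1.51) and Rps4y2 (1.52) on the log2(FPKM + 1) scale. It was negative for Rps27l (-1.30). Of all 88 members tested, 27 were called positive and 1 negative, where 20.6% of all genes were called positive and 17.6% negative. Some of the 14 were named for a large rise in 1 of these routes, and Rps12l1 cannot be told from Rps12. With copies summed, Rpl29 rose by 0.88 and 0.39 in the 2 routes, in place of 1.18 and 0.43. All 4 groups enter each difference between the routes, NSC and IEC with a lone library that has no replicate check. The test of this difference was not repeated under other scalings, filters or with lines left out. The IEC library also held markers of mesenchyme, smooth muscle, leukocytes, liver and pancreas, and their part in these values was not tested.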

How the results depend on the processing

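The rise of the core genes in NSC-CiPSC over NSC kept its direction and at least 65 calls in every alternative run. Its median of 1.30 became 1.14 with an equal FPKM sum or median ratio scaling, 1.01 with an equal sum without mitochondrial and selenoprotein transcripts, and 0.79 with quantile normalization. For IEC-CiPSC over IEC, 51 calls became 23 with median ratio scaling, 26 with quantile normalization and 10 at 2-fold or more, 69 with only the groups compared, and 14 to 58 when each line was left out. Its median of 0.62 became 0.45 and 0.41 under the 2 equal sums, 0.21 with median ratio scaling, 0.26 with quantile normalization, 0.63 with copies summed, and 0.62 to 0.63 when each line was left out; the median of all genes was -0.15, -0.18, -0.34 and 0.15 under the first 4, in place of -0.03.

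Against ESC, the 4 NSC-CiPSC calls became 1 with only the groups compared fitted, 0 with copies summed (7 at an unadjusted p under 0.05) and 1 to 5 when each line was left out. The 7 IEC-CiPSC calls became 0 with only the groups compared (19 unadjusted), 4 with copies summed, 4 at 2-fold or more and 0 to 7 when each line was left out (8 to 20 unadjusted). The IEC-CiPSC median of 0.07 became -0.03 and -0.00 under the 2 equal sums, 0.04, -0.08 and 0.06 under median ratio scaling, quantile normalization and copies summed. Between the 2 kinds of CiPSC, 5 calls became 9 with a stricter filter, 8 with an equal sum, 11 with an equal sum without mitochondrial and selenoprotein transcripts, 8 with quantile normalization, 1 at 2-fold or more and 0 to 6 when each line was left out. With copies summed, Rpl29 reversed to -0.25 (NSC-CiPSC against ESC), -0.09 (IEC-CiPSC against ESC) and -0.17 (between the 2 kinds of CiPSC), and Rpl30 to -0.41 (NSC-CiPSC against ESC); none of these 4 was called. Other causes were not tested. The stricter filter and the fits on fewer groups test fewer genes or samples by construction.

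Without mitochondrial and selenoprotein transcripts in the sum the members' share was 23.5% in NSC-CiPSC, 11.6% in NSC, 23.3% in IEC-CiPSC, 16.7% in IEC and 22.6% in ESC, against 20.6%, 9.30%, 20.3%, 14.2% and 20.02%. The median difference of NSC from IEC was -0.45 with quantile normalization in place of -0.62. No paired analysis was possible because NSC, IEC and ESC have 1 library each and the labels give no pairing of the lines. With FPKM only, the depth behind a value is unknown.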
